A study of Mus musculus with 9 samples.

Results

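Periostin, fibronectin, tenascin C and other matricellular genes were examined in the left ventricle of C57BL/6 males. The list held 10 genes, and 9 of them had at least 1 probe set whose platform annotation gave that symbol alone: Postn, Sparc, Sparcl1, Tnc, Fn1, Tgfbi, Cilp, Smoc2 and Spon2. They make up 9 of the 18193 genes of the table and have 18 probe sets. Spp1 (osteopontin), the remaining listed gene, was not analysed here. Hearts were taken 6 weeks after transaortic constriction (TAC, n = 4 arrays), an operation that narrows the aorta so that the left ventricle pumps against raised pressure, or 6 weeks after sham surgery (n = 5 arrays). The labels give strain and sex, which all arrays share, and no age, genotype, batch or pairing. They list 1 sample per array and speak of groups of mice without tying an array to an animal, and p-values therefore reflect only the spread from sample to sample.

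Matricellular proteins are secreted into the extracellular matrix, where they tune how cells attach to it, how collagen is assembled and how growth factors reach their receptors. In the adult heart many of them are made at low levels and are known for their appearance after injury or pressure overload, with fibroblasts as a main source. Periostin (Postn) and the TGF-beta-induced protein (Tgfbi) share fasciclin domains, SPARC, SPARC-like 1 and SMOC2 share a calcium-binding SPARC-type domain, and fibronectin and tenascin C are large adhesive glycoproteins.

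In the TAC ventricles 7 of the 9 genes rose, 0 fell and 2 did not pass the test. Cilp was 18.4-fold, Postn 9.73-fold, Tnc 4.13-fold and Fn1 3.27-fold higher, whereas Tgfbi, Sparc and Smoc2 rose by only 0.45 to 0.59 on the log2 scale. Sparcl1 and Spon2 stayed below the threshold. Over all 18193 genes 12.8% were called higher and 12.3% lower at an adjusted p below 0.05, and the median difference of the 9 genes was 0.59 on the log2 scale, against -0.0038 for all genes. In each of the 7 genes that rose, all 4 TAC arrays lay above all 5 sham arrays, and over all genes 25.2% had groups that did not overlap, in either direction. No member was lower even at an unadjusted p below 0.05 in limma, and eBayes with a trend in the variance and robust fitting again called 7 higher and 0 lower. A difference here means TAC minus sham in log2 units of RMA, a method that corrects background, gives every array the same distribution and condenses the probes of each set to 1 value. They come from limma with standard errors (SE) and Benjamini-Hochberg adjusted p-values over all genes, and the brightest probe set stands for a gene. Of all called genes 51.1% were higher, or 40.5% with arrays centred on their medians, which moved the median difference of all genes to -0.05. The median over all probe sets was 6.57 in every array, so the medians used for centring were not those over all probe sets.

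**Figure D1:**
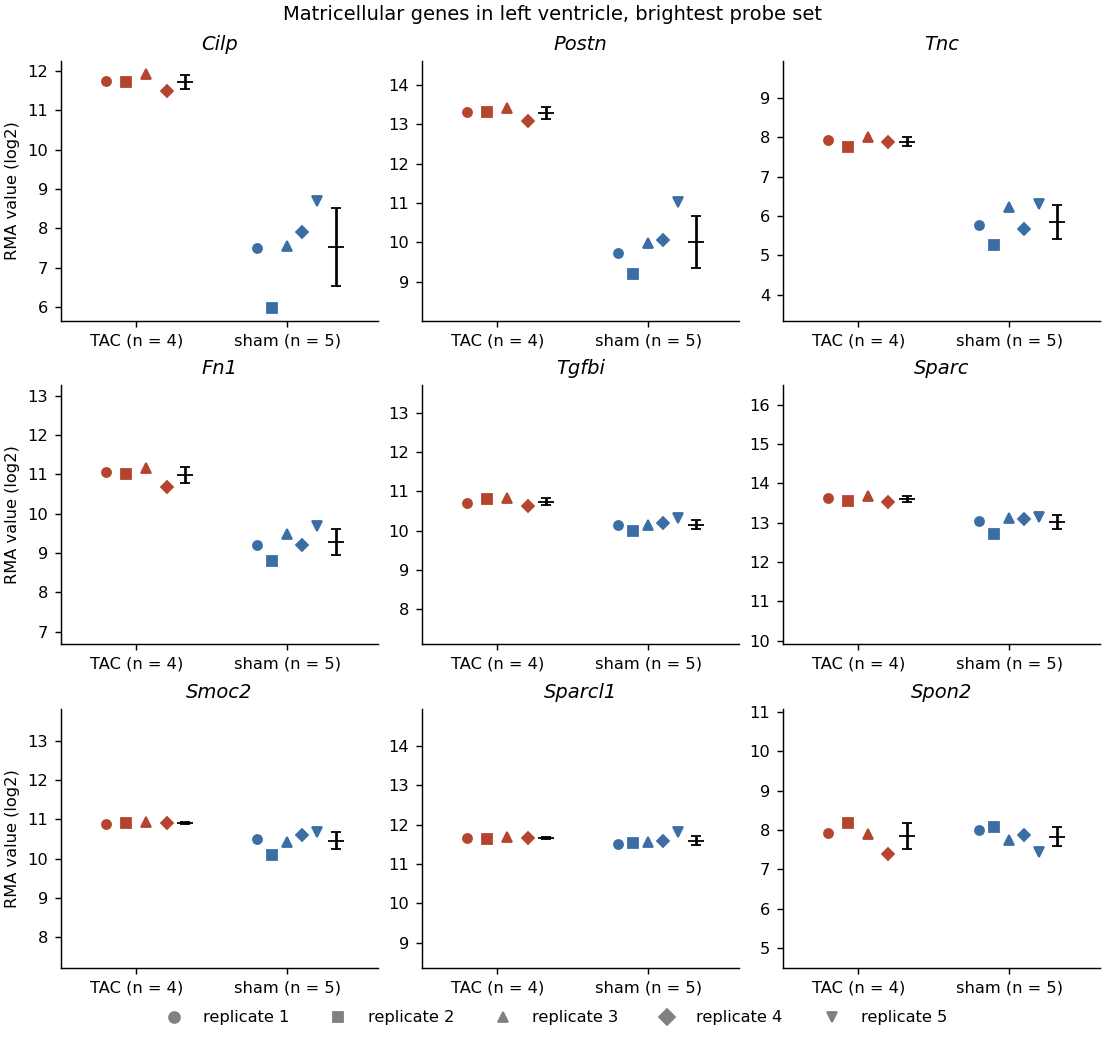
RMA values (log2) of the 9 matricellular genes in each TAC and sham array, at the brightest probe set, with the mean and SD beside the points. The vertical axes span the same number of log2 units, so that the wide gap of Cilp and Postn can be set against the overlap of Sparcl1 and Spon2.

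Since Cilp, Postn and Tnc had the largest differences, the 250 bases before their annotated starts are shown, from RefSeq on GRCm38.p6. RefSeq windows that end at the annotated start matched 5 of the 9 genes. Capitals mark matches to the letters searched on both strands, CAGAC (the SMAD core) and TATAAA (a form of the TATA box). The Cilp window is chr9:65264930-65265179 on the plus strand, the Postn window chr3:54359017-54359266 on the plus strand and the Tnc window chr4:64047016-64047265 on the minus strand.
Cilp: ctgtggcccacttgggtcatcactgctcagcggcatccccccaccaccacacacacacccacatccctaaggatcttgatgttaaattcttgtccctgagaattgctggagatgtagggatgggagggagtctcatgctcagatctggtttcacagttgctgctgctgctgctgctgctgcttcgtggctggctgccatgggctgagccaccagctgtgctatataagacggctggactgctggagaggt
Postn: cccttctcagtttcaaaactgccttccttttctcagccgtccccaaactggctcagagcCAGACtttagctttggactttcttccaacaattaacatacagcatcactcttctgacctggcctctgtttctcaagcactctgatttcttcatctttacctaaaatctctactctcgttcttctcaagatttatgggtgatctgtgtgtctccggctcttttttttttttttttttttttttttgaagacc
Tnc: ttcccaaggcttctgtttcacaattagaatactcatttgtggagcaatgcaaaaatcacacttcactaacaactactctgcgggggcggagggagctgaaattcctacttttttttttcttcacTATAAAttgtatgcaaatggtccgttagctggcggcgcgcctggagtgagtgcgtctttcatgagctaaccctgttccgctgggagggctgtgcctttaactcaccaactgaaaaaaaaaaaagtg
CAGAC was found in 3 of the 5 windows (Postn, Tgfbi and Sparc), and 42.2% of 32817 promoter windows of the same length hold it. In Postn it begins 191 bases before the start. TATAAA was found in 1 of the 5 windows, that of Tnc, where it ends 121 bases before the start, against 12.4% of all windows. Only these exact letters were counted, so variants such as the tatataa near the end of the Cilp window were not. Whether any of these stretches acts as a TATA box was not tested. The AP-1 letters TGANTCA and the TEAD letters GGAATG were in 0 of the 5 windows, against 6.8% and 12.6% of all windows. The motifs did not overlap in any printed window, and a match is a description of the letters only.

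Postn encodes periostin, which binds integrins and helps to crosslink collagen. Its values were 13.33, 13.31, 13.43 and 13.09 in the TAC arrays, against 9.74, 9.20, 9.996, 10.07 and 11.04 in the sham arrays. The TAC arrays lay within a narrow band and sham replicate 5 was the highest sham array, yet the groups were separated by 2.05 between the lowest TAC and the highest sham value. Postn averaged 13.29 ± 0.14 in TAC (SD, n = 4) and 10.01 ± 0.67 in sham (SD, n = 5), a difference of 3.28 (SE 0.29, adjusted p = 3.19e-05 in limma), which ranked 15 among the increases of all genes.

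The other fasciclin gene, Tgfbi, changed less. It had 4 probe sets, and at the brightest its values were 10.70, 10.81, 10.82 and 10.62 in TAC, against 10.14, 9.99, 10.14, 10.18 and 10.31 in sham. All TAC values were above all sham values, by at least 0.31. The difference was 0.59 (SE 0.08, adjusted p = 0.000387 in limma). Its other 3 probe sets rose by 0.68, 0.64 and 0.89 (adjusted p over all 45037 probe sets = 0.000511, 0.000874 and 0.000318 in limma). Within the same arrays Postn changed by 2.70 more than Tgfbi (two-sided exact permutation p = 0.00794, adjusted p = 0.0110 over 36 pairs of members).

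Fn1 encodes fibronectin, the glycoprotein on which cells build fibrils through integrins. At the bright probe set it read 11.07, 11.02, 11.16 and 10.69 in TAC and 9.21, 8.79, 9.48, 9.20 and 9.69 in sham. TAC replicate 4 was the lowest TAC array and still lay 1.00 above the highest sham array. Fn1 averaged 10.98 ± 0.21 in TAC (SD, n = 4) and 9.27 ± 0.34 in sham (SD, n = 5), a difference of 1.71 (SE 0.17, adjusted p = 5.64e-05 in limma). The dimmer probe set ran from 5.40 to 6.44 in TAC and from 4.81 to 5.64 in sham, where the groups overlapped. Its difference of 0.64 did not pass over all probe sets (adjusted p = 0.0597 in limma) and was 1.07 smaller than at the bright probe set (two-sided exact permutation p = 0.00794, adjusted p = 0.0179 over 9 pairs of probe sets).

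Tnc encodes tenascin C, which weakens cell adhesion to fibronectin. Its values were 7.93, 7.75, 8.01 and 7.89 in TAC, against 5.78, 5.27, 6.24, 5.66 and 6.31 in sham. The sham mean of 5.85 lay under the median of all values on an array, 6.57, and the TAC mean of 7.90 above it. The difference was 2.05 (SE 0.19, adjusted p = 4.32e-05 in limma), 0.34 larger than that of Fn1 in the same arrays (two-sided exact permutation p = 0.0238, adjusted p = 0.0296 over 36 pairs). A dimmer Tnc probe set averaged 4.74 ± 0.68 in TAC (SD, n = 4) and 4.14 ± 0.37 in sham (SD, n = 5). There the groups overlapped, and the difference of 0.60 did not pass (adjusted p over all probe sets = 0.196 in limma). With both probe sets averaged, Tnc rose by 1.33.

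Cilp, which encodes a matrix glycoprotein first known from cartilage and made by cardiac fibroblasts, had the largest difference among the 9 genes. Its single probe set read 11.74, 11.71, 11.93 and 11.50 in TAC, against 7.48, 5.97, 7.55, 7.89 and 8.70 in sham. The sham arrays spread widely, from 5.97 in replicate 2 to 8.70 in replicate 5, while the TAC arrays kept close together. Cilp averaged 11.72 ± 0.18 in TAC (SD, n = 4) and 7.52 ± 0.99 in sham (SD, n = 5), a difference of 4.20 (SE 0.42, adjusted p = 6.68e-05 in limma), the rank 5 increase among all genes. Its change exceeded that of Postn by 0.92 within the same arrays (two-sided exact permutation p = 0.00794, adjusted p = 0.0110 over 36 pairs).

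The SPARC group changed less, and unevenly. Sparc encodes a collagen-binding protein involved in the deposition of fibrillar collagen. Its brightest probe set read 13.63, 13.56, 13.69 and 13.53 in TAC, against 13.03, 12.72, 13.13, 13.10 and 13.14 in sham. The groups did not overlap, with a difference of 0.58 (SE 0.09, adjusted p = 0.00125 in limma). These values lie near the bright end of the scale. At the next probe set in brightness, where sham averaged 12.48, the difference was 0.85 (adjusted p over all probe sets = 0.000744 in limma), 0.27 more than at the brightest (two-sided exact permutation p = 0.00794, adjusted p = 0.0179 over 9 pairs of probe sets). The dim probe set of Sparc averaged 5.67 in TAC and 5.59 in sham and did not pass (adjusted p = 0.673 in limma).

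Smoc2 encodes a secreted modular relative of SPARC. It read 10.89, 10.92, 10.94 and 10.91 in TAC, against 10.51, 10.10, 10.43, 10.60 and 10.68 in sham. The TAC values were nearly alike (SD 0.02), and the lowest of them was 0.22 above the highest sham value. The difference was 0.45 (SE 0.11, adjusted p = 0.0111 in limma), and the dimmer probe set rose by 0.70 (adjusted p over all probe sets = 0.00169 in limma).

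Sparcl1, also called hevin, is the closest relative of SPARC in the list. Its values were 11.67, 11.63, 11.68 and 11.65 in TAC, against 11.50, 11.53, 11.57, 11.58 and 11.80 in sham. The TAC arrays lay above 4 sham arrays and below sham replicate 5. TAC exceeded sham by 0.06, with a 95% confidence interval from -0.10 to 0.22 (adjusted p = 0.593 in limma). Sparc changed by 0.52 more than Sparcl1 in the same arrays (two-sided exact permutation p = 0.00794, adjusted p = 0.0110 over 36 pairs), and Smoc2 by 0.39 more, with the same p-values.

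Spon2 encodes spondin 2, a secreted protein of the spondin family that binds integrins. It read 7.93, 8.18, 7.90 and 7.39 in TAC, against 8.01, 8.08, 7.74, 7.88 and 7.45 in sham. Both groups covered nearly the same range. The difference was 0.02 with a 95% confidence interval from -0.35 to 0.39 (adjusted p = 0.953 in limma). Its dimmer probe set differed by -0.16 (adjusted p over all probe sets = 0.341 in limma), so neither passed.

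Among the 18 probe sets, 12 rose, 0 fell (none was lower at an unadjusted p below 0.05 in limma) and 6 did not pass, against 8.87% higher and 8.86% lower of the 45037 probe sets tested. The same 12 had all TAC above all sham arrays, against 10.2% of all probe sets. Of the 6 that did not pass, 2 were the brightest probe sets of Sparcl1 and Spon2, and the other 4 were the probe sets that averaged below the array median (dim ones of Tnc, Fn1, Sparc and Spon2). No detection calls were used, so whether these 4 measure their transcripts was not tested.

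**Figure D2:**
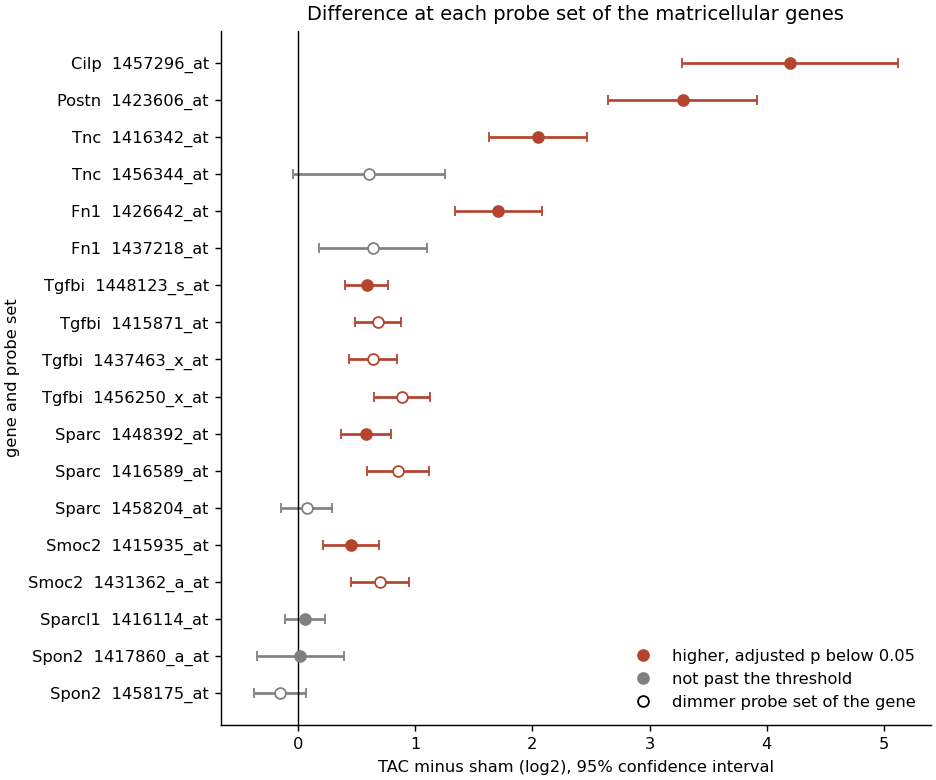
Difference TAC minus sham (log2) with its 95% confidence interval at each of the 18 probe sets, filled for the brightest of a gene and open for the others. The probe sets of Tgfbi lie between 0.59 and 0.89, whereas the dim ones of Tnc and Fn1, at 0.60 and 0.64, lie below the bright ones at 2.05 and 1.71.

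Ordered by their difference the genes ran Cilp, Postn, Tnc, Fn1, Tgfbi, Sparc, Smoc2, Sparcl1 and Spon2. Of the 36 pairs, 30 differed in their change (two-sided exact permutation over all splits of the arrays, smallest possible p = 0.00794, adjusted over the pairs). Of the 8 neighbouring pairs in this order 5 differed. Tgfbi and Sparc (0.01 apart, adjusted p = 0.905 over the pairs by exact permutation), Sparc and Smoc2 (0.13, adjusted p = 0.0714) and Sparcl1 and Spon2 (0.04, adjusted p = 0.905) did not pass. Cilp, Postn, Tnc and Fn1 each changed more than every gene after them. Postn and Sparc reach values above 13 in TAC, and whether RMA values are compressed at that brightness was not tested. Each gene was read at its own probe set, and bright probe sets of the same gene could differ too. Against the brightest, another probe set rose by 0.27 more in Sparc and 0.30 more in Tgfbi (both adjusted p = 0.0179 by exact permutation). Other Tgfbi probe sets, at 0.10 and 0.05 more, did not pass (adjusted p = 0.0612 and 0.330). What part the probe sets had in the differences between genes was not tested.

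Most members shared the same high and low arrays within a group. Sham replicate 2 was the lowest sham array for 7 of the 9 genes, with Sparcl1 and Spon2 as the exceptions, and sham replicate 5 was the highest for 8 of 9, Spon2 being the exception. Relative to the sham mean, replicate 5 was 1.18 higher in Cilp, 1.03 in Postn, 0.46 in Tnc and 0.41 in Fn1, and replicate 2 was lower, at -1.55, -0.81, -0.58 and -0.48 in the same genes. Among TAC arrays, replicate 4 was the lowest for 6 of 9 genes and replicate 3 the highest for 8 of 9. Sham replicate 2 also stood apart from the other sham arrays over all genes. It lay at -40.85 on the first principal component (60.9% of the variance), against -22.15 to -18.29 in the other sham arrays. This component also separated the TAC arrays, at 24.97 to 35.07. On the second (15.1%) sham replicate 2 lay at -29.71, against 1.16 to 23.76 in the other sham arrays. The excess of 3' over 5' signal at the control probe sets for actin and GAPDH, a measure that rises as RNA degrades, was 0.90 to 0.93 in TAC arrays and 0.90 to 1.16 in sham arrays, with the highest value in sham replicate 5. What part these arrays' RNA had in the values was not tested. The 7 calls held on leaving out any 1 array, with differences of 3.08 to 3.54 for Postn and 3.81 to 4.50 for Cilp, lowest without sham replicate 2 and highest without sham replicate 5.

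**Figure D3:**
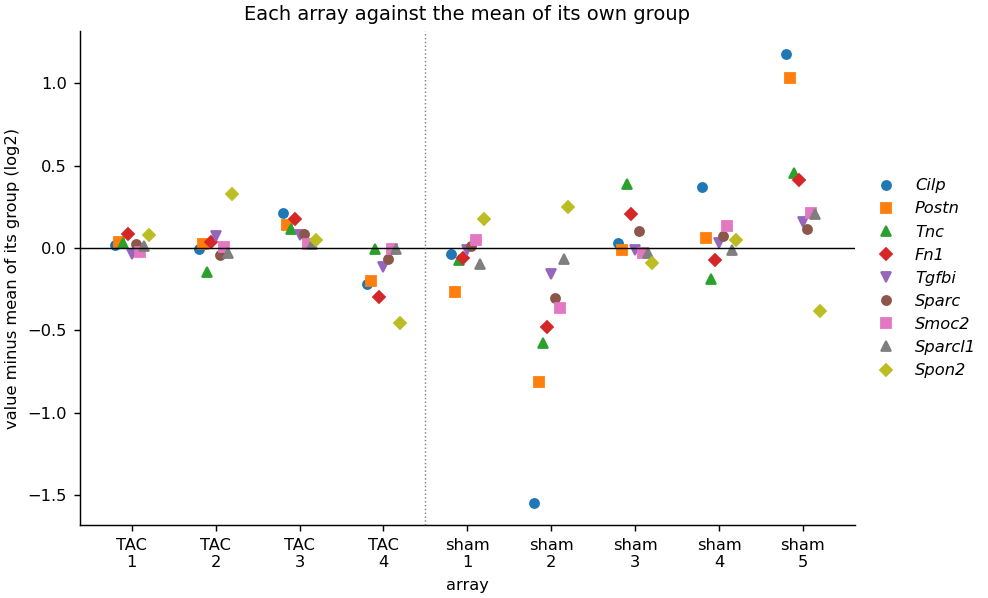
Value of each gene minus the mean of its own group (log2), by array, with TAC left of the dotted line and sham right of it. In sham replicates 2 and 5 most genes lie together below and above the group mean, most widely in Cilp and Postn.

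The 3 genes most like Postn in profile were sought by the root mean square difference over the 9 arrays, with each gene centred on its sham mean. They were Col8a1 (0.23), a short-chain collagen gene, Mfap4 (0.24), a microfibril-associated glycoprotein gene, and Lox (0.25), the gene of a collagen crosslinking enzyme. Among the members Cilp was nearest (0.675) and Tnc next (0.87). Col8a1 read 11.58, 11.81, 11.77 and 11.33 in TAC, against 8.48, 7.77, 8.74, 8.52 and 9.12 in sham. Its lowest sham value was in replicate 2 and its highest in replicate 5, as in Postn, which the choice by likeness to Postn favours.

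Genes around the members were described with 4 lists, whose counts stand against 12.8% called higher and 12.3% called lower over all genes. Of 20 measured genes of family relatives of the members and of other matrix proteins, among them the transmembrane receptors Stab1 and Stab2 that share fasciclin domains with periostin, 4 rose and 4 fell, with a median of -0.01. Mfap4 rose by 3.03 (SE 0.25) and Fstl1, which encodes a secreted SPARC-family protein, by 1.70 (SE 0.14, adjusted p = 1.99e-05 in limma), while the fibulin gene Efemp1 fell by 1.75 (SE 0.18) and the vitronectin gene Vtn by 0.82 (SE 0.09). Vwa1 (0.54) and Cilp2 (0.30) completed the increases and Spock1 (-0.53) and Spock2 (-0.49) the decreases. Without TAC replicate 3 only 2 increases were called, since Vwa1 and Cilp2 did not pass (adjusted p = 0.0565 and 0.0746 in limma), and Spock2 was called in only 2 of the 9 fits that left out an array.

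Of 15 receptor genes for these proteins, mostly integrin chains, 6 rose and 0 fell, with a median of 0.29. Behind the 0 for decreases, 1 gene was lower at an unadjusted p below 0.05 and 0 with a trend and robust fitting in limma. Itga9, an integrin chain that binds tenascin C and osteopontin, rose by 1.53 (SE 0.13), the hyaluronan receptor gene Cd44 by 1.05 (SE 0.11), the fibronectin receptor chain Itga5 by 0.82 (SE 0.13) and Itgb5 by 0.57 (SE 0.10). Itga9 itself read 8.48, 8.59, 8.65 and 8.40 in TAC, against 7.21, 6.59, 7.17, 7.12 and 6.88 in sham. Unlike most members, Cd44 had its lowest sham value in replicate 5.

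Of 15 genes of proteases, processing enzymes and crosslinkers that act on the matrix 10 rose and 0 fell, with a median of 0.64 (2 were lower at an unadjusted p below 0.05 and 0 with a trend and robust fitting in limma). Lox rose by 3.27 (SE 0.19), Loxl3 by 2.15 (SE 0.20), Loxl1 by 1.29 (SE 0.10) and the gelatinase gene Mmp2 by 1.09 (SE 0.10). Bmp1, the procollagen protease that also activates lysyl oxidase, did not pass at its brightest probe set (0.22, adjusted p = 0.119 in limma). It was called higher with its probe sets averaged (0.29, adjusted p = 0.0111) and without sham replicate 2 (0.29, adjusted p = 0.0146).

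Of 23 regulator genes 9 rose and 0 fell, with a median of 0.33 (1 was lower at an unadjusted p below 0.05 and 0 with a trend and robust fitting in limma). The ligand genes Tgfb2 and Tgfb3 rose by 2.04 (SE 0.08) and 1.54 (SE 0.15), the tendon transcription factor gene Scx by 0.96 (SE 0.09) and the receptor gene Tgfbr1 by 0.89 (SE 0.09). The ligand gene Tgfb1, at 0.54, did not pass (adjusted p = 0.0589 in limma), although all TAC arrays lay above all sham arrays. It was called higher without sham replicate 1 (adjusted p = 0.0453 in limma) and without sham replicate 2 (adjusted p = 0.00843). As the mean of all its probe sets, Tgfbr1 was 0.21 higher and below the threshold (adjusted p = 0.393 in limma). Smad3 (-0.19, adjusted p = 0.237) and Srf (0.14, adjusted p = 0.370) did not pass in limma either.

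**Figure D4:**
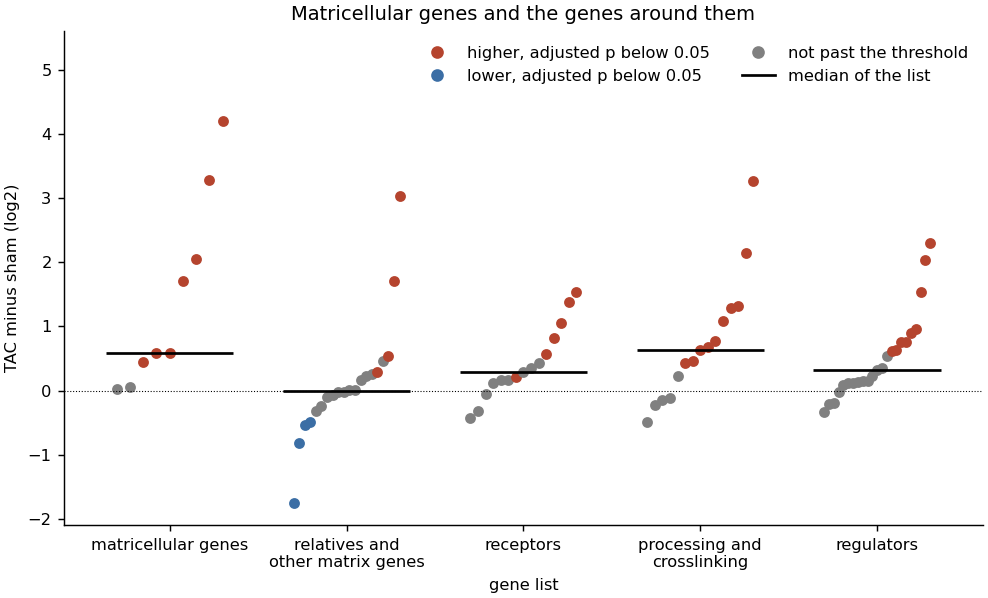
Difference TAC minus sham (log2) of each gene in the list of matricellular genes and in the 4 lists around it, coloured by call, with the median of each list as a line. The matricellular genes lie between 0.02 and 4.20, and the relatives and other matrix genes spread on both sides of 0 from -1.75 to 3.03.

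Markers of cell types were read beside these genes, since in tissue RNA fewer cells of a type and less RNA per cell cannot be told apart. Of 10 fibroblast markers 6 rose and 0 fell, and the mean level of the list was 11.44 to 11.71 in TAC arrays and 11.06 to 11.20 in sham arrays. The fibroblast receptor gene Pdgfra (0.04, adjusted p = 0.698 in limma) and the fibroblast transcription factor gene Tcf21 (0.13, adjusted p = 0.541) did not pass. Of 8 myofibroblast (activated fibroblast) markers 7 rose and 1 fell, with a mean level of 10.14 to 10.48 in TAC and 8.16 to 8.87 in sham. The marker that fell, by 0.53, was Acta2 (adjusted p = 0.00154 in limma), with all TAC below all sham arrays. Meox1 of this list also stands in the regulator list. Sham replicates 2 and 5 had the lowest and highest sham means of both lists. The same held for the endothelial, smooth muscle and pericyte, erythroid and adipocyte lists, and for the relatives and other matrix genes. It did not hold for the other marker lists. Of 14 macrophage markers 10 rose and 0 fell, at mean levels of 9.11 to 9.21 in TAC and 8.32 to 8.72 in sham, although Cd163 was -0.40 at an adjusted p of 0.0564 and was called lower with a trend and robust fitting in limma. Of 6 tendon and cartilage markers 5 rose and 0 fell, at 6.79 to 7.06 in TAC and 5.72 to 6.03 in sham. Of these 6 markers 4, Tnmd, Chad, Acan and Col2a1, averaged below the array median, and in Chad the groups overlapped. Scx and Sox9 also stand in the regulator list. The fibroblast and the tendon and cartilage lists had 0 decreases also at an unadjusted p below 0.05 and with a trend and robust fitting in limma. What part these cell types had in the members' differences was not tested. The 7 measured T and B cell markers all averaged below the array median and 0 passed in either direction (0 also at an unadjusted p below 0.05 and with a trend and robust fitting in limma). Cardiomyocyte markers were bright and 1 of 8, Tnni3, fell, with a list mean of 14.18 to 14.20 in TAC and 14.22 to 14.26 in sham. Of 4 atrial markers 1 rose and 0 fell, with a median of 0.21 (0 were lower at an unadjusted p below 0.05 or with a trend and robust fitting in limma), and 3 of the 4, Myl7, Sln and Bmp10, averaged below the array median. Myl4 rose by 0.45 (adjusted p = 0.0175 in limma), at 8.51 in TAC and 8.06 in sham. In the remaining lists 1 of 7 endothelial markers rose and 1 fell, 1 of 6 smooth muscle and pericyte markers rose and 2 fell, and 1 of 5 skeletal muscle markers, Ckm, fell. The share over all genes, to be set beside each count of markers, was 12.8% higher and 12.3% lower. The measured neutrophil (4), epicardial and mesothelial (5), erythroid (2) and adipocyte (2) markers had 0 calls, also with a trend and robust fitting in limma. At an unadjusted p below 0.05, 1 epicardial and mesothelial marker was higher, and 1 erythroid and 1 adipocyte marker were lower.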

How the data were processed

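The deposited table holds log2 values that the authors computed with RMA (per the submitters' processing notes), whose version and software are not given in the sources used here. All 9 columns held the same sorted values, so no general rise or fall of RNA can be seen. The number of arrays limits the precision. Of 45101 probe sets, 64 controls were left out, 34945 had 1 symbol in the platform annotation, 932 had several and 9160 had none listed. Each of 18193 genes was represented by its brightest probe set on average over the 9 arrays, with no filter on dim genes. Groups came from the treatment label and replicate numbers from sample order. TAC was compared with sham by limma 3.58.1 (R 4.3.3; lmFit and eBayes, no covariate, two-sided, 7 residual and 3.27 prior degrees of freedom), with Benjamini-Hochberg adjustment and a threshold of 0.05, over genes and, for single probe sets, over 45037 probe sets. Pairs of members and of probe sets were compared by exact permutation. The fit was tested on simulated data. The members and lists were chosen with earlier results of these data known. Named genes were the members, of each list up to 4 called genes with the smallest p, and the 3 genes most like Postn (the same rule for Spp1 was not run). Others were chosen after their values were seen: Vwa1, Cilp2, Spock1, Spock2, Bmp1, Tgfb1, Smad3, Srf, Itgb6, Itgav, Ptprz1, Stab1, Stab2 and the markers named. Some listed genes were not analysed here. Alternatives were other probe set summaries, a brightness filter, variance models, array weights, scalings, thresholds and leaving out each array.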

Additional observations from a re-analysis of the deposited data

Results flagged for a closer look

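Of 36 groups of arrays (18 probe sets, TAC and sham), 3 held a value farther from its neighbours than a Dixon test at 95% allows, and chance alone gives about 1 in 20. All were in sham. Sparc was low in sham replicate 2 at both bright probe sets, with 12.72 against 13.03 for the next sham array at the brightest and 12.05 against 12.52 at the other. Sparcl1 was high in sham replicate 5, at 11.80 against 11.58 for the next. Without sham replicate 2 the difference of Sparc was 0.50, and without sham replicate 5 that of Sparcl1 was 0.11 and did not pass.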

How the results depend on the processing

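The 7 increases kept their direction under every alternative run, and their calls held except at stricter thresholds: Smoc2 (0.45, adjusted p = 0.0111 in limma) was not called at an adjusted p below 0.01, and Smoc2 (0.45) and Sparc (0.58) were not called when at least 1.5-fold was asked. With probe sets averaged the difference of Tnc was 1.33, against 2.05 at the bright probe set. Tnc was too dim to be tested among genes brighter than the median gene. Spon2, never called, turned to -0.069 with its probe sets averaged and to -0.032 with arrays centred on the median, and ran from -0.091 to 0.17 on leaving out 1 array. With probe sets averaged per gene 2 receptor genes were lower, Itgb6 and Ptprz1, and 0 to 1 on leaving out an array (Itgb6 without sham replicate 2). Increases among the relatives and other matrix genes numbered 2 (without TAC replicate 3) to 5 on leaving out 1 array. In the same fits they numbered 8 to 12 among the regulators, 5 to 7 among the receptors and 10 to 11 among the processing and crosslinking genes. The integrin gene Itgav, called higher at its brightest probe set, differed by 0.01 with its probe sets averaged (adjusted p = 0.955 in limma). Itgav was also not called without sham replicate 1, 3 or 4 or without TAC replicate 1, 2 or 3 (adjusted p = 0.0532 to 0.106 in limma). The number of pairs that differed ran from 28 to 30 on leaving out 1 array. It was 31 with probe sets averaged and 33 with the brightest probe set below 13, where Sparc rose by 0.85. These alternatives for the pairs were chosen after seeing the data. No paired analysis was possible because the labels give no pairing of TAC with sham samples. RMA values give no signal over background for single probe sets, which limits what the 4 dim probe sets show.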
